A study of Mus musculus with 10 samples.

Results

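Stretches of chromatin that were open at the ends of protein-coding genes in every ATAC-seq library of the series are described here. ATAC-seq cuts accessible DNA with the Tn5 transposase and tags it with sequencing adapters, and a peak is a stretch with more cuts than its surroundings. The cells were C3H10 T1/2, a mouse embryo fibroblast line that can form bone, cartilage and fat cells. The 2 ATAC-seq groups were cells with Piezo1 knocked out by CRISPR/Cas9, with 2 libraries, and GFP control cells of the same line, also with 2 libraries, each from nuclei of 50000 cells. Piezo1 encodes a mechanically gated ion channel. Whether the knockout cells were 1 clone or a pool is not given in the sources used here. The 2 RNA-seq groups were cells under cyclic mechanical strain and static control cells, with 3 libraries each. Both were grown for 48 h on flexible plates, and strain was a 0.5 Hz sine wave of 10% elongation for 8 h per day over 3 days. The labels name no gene editing in the RNA-seq cells.

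Peaks of the 4 ATAC-seq lists were merged where they overlapped by at least 1 bp, which gave 29289 regions in the whole series. A region was kept when it held a peak from all 4 lists, lay within 1000 bp of either end of a protein-coding gene (mm10) and was on an autosome other than chromosomes 1, 8, 15 and 16. This left 3623 shared gene-end regions of 22474 merged regions on the same 15 autosomes. The lists held 15980 and 13610 peaks in Piezo1 knockout cells, against 15978 and 26652 in GFP control cells. The regions were chosen by the presence of a peak in all 4 lists, so a region present in one group and absent from the other cannot be among them, and their peak heights are described with no test between the groups. At the distance limit, the last region inside lay 993 bp from an end of Ehd1, with fold enrichments of 6.33 and 4.11 in knockout cells and 5.29 and 5.39 in GFP cells. The first region outside lay 1003 bp from an end of Arih1, with 7.07 and 6.93 in knockout cells and 8.10 and 6.90 in GFP cells. Piezo1 itself lies on chromosome 8 and is outside the rule.

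A promoter is the DNA around a gene's transcription start, where general transcription factors and RNA polymerase II assemble. At active promoters the start lies in a gap between nucleosomes, which leaves the DNA open to transposase. Many mammalian promoters are CpG islands, rich in the CG dinucleotide, and lack a TATA box. Sequence-specific factors bind such promoters, among them the SP and KLF zinc fingers at GC boxes, the trimeric factor NF-Y at CCAAT boxes, the ETS family, NRF1, YY1 and the CREB and ATF factors at cyclic AMP response elements. Promoters of genes that every cell uses are open in most cell types, whereas distal regulatory elements differ more between cell types.

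The 200 bases before the start of 8 genes with a shared region are printed to show the promoter sequence these regions cover, taken from RefSeq on GRCm38.p6, the mm10 assembly. They run 5′ to 3′ on the gene's own strand, and capitals mark matches, on either strand, to 13 motifs searched. Prmt5, Ensa, Osbp and Amz2 are among the 10 regions with the highest lowest fold enrichment over the 4 libraries. Cycs, encoding the electron carrier cytochrome c, and Rpl15, encoding a protein of the large ribosomal subunit, stand for gene lists described below. Srxn1 and Ciart are among the largest RNA changes under strain.
Prmt5, chr14:54517471-54517670, minus strand: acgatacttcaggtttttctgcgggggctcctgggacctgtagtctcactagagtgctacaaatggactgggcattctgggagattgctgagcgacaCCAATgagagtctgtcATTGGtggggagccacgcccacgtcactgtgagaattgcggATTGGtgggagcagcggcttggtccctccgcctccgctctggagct
Ensa, chr3:95624780-95624979, plus strand: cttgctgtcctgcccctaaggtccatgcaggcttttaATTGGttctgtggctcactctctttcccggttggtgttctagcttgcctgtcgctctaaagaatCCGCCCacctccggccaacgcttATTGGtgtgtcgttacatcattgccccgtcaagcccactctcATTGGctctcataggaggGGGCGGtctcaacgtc
Osbp, chr19:11965644-11965843, plus strand: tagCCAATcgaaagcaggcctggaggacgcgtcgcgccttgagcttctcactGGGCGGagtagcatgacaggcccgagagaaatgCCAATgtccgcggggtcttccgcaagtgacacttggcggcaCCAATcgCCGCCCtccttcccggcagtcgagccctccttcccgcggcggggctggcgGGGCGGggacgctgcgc
Amz2, chr11:109425746-109425945, plus strand: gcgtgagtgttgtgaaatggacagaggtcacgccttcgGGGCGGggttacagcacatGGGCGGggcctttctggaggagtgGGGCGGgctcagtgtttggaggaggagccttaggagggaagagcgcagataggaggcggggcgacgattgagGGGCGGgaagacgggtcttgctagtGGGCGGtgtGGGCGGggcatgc
Cycs, chr6:50566570-50566769, minus strand: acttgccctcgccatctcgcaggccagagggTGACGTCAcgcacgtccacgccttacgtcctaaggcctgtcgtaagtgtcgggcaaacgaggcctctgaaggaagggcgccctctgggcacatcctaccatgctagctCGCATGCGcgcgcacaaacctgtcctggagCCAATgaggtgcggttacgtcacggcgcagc
Rpl15, chr14:18270987-18271186, minus strand: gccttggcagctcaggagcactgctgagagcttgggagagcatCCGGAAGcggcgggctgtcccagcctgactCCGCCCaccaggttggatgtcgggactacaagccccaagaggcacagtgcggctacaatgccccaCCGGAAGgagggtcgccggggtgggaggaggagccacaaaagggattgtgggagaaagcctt
Srxn1, chr2:152105324-152105523, plus strand: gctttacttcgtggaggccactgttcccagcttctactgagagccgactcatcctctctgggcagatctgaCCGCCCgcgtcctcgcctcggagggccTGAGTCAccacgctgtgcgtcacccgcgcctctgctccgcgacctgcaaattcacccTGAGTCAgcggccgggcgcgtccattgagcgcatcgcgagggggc
Ciart, chr3:95882229-95882428, minus strand: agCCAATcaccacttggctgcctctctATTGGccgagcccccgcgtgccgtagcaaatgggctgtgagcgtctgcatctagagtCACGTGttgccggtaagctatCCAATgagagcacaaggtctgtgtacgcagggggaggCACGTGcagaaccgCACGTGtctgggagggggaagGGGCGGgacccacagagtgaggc
The Prmt5, Ensa, Osbp and Ciart stretches each held 3 matches to CCAAT, which reads ATTGG on the opposite strand. The Amz2 stretch held 6 matches to the GC box GGGCGG and no CCAAT. The Cycs stretch held 1 match each to the NRF1 motif CGCATGCG, the cyclic AMP response element TGACGTCA and CCAAT. The Rpl15 stretch held 2 matches to the ETS motif CCGGAAG, that of Srxn1 2 matches to the AP-1 motif TGANTCA, and that of Ciart 3 matches to the E-box CACGTG. The Ciart stretch ends at a listed transcript start 29 bases from the gene's own end, and the other 7 stretches end at the gene's own start.

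Regions found in more lists lay at gene ends more often. Of the 6123 regions shared by all 4 lists, 59.2% were at a gene end (95% exact interval 57.9 to 60.4), against 42.9% of regions in 3 lists, 28.4% in 2 lists and 23.0% in 1 list. Intervals here and below are Clopper-Pearson intervals over regions or genes, which are not independent samples. They cover counting error only. The shared gene-end regions had a median width of 758 bp (quartiles 645 and 872, range 240 to 1811). The 2500 shared regions far from gene ends had 738 bp, and the 4513 gene-end regions in only 1 to 3 lists had 286 bp. A shared region joins the peaks of all 4 lists, so the gap in width to regions of fewer lists is set in large part by the merging.

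Nearly all of the shared gene-end regions whose kind of end was assigned were at the start of a gene. A region counted as at a start when any gene had its listed start within 1000 bp. With no such start, it was left unassigned when any gene near it had no listed strand, which can raise the share at starts. Of the 3100 assigned regions, 3054 (98.5%, interval 98.0 to 98.9) lay at a start, and these were 84.3% of all 3623. Of the 3054, 171 (5.60%) were also at a termination end. The corresponding share was 94.9% for gene-end regions in 1 to 3 lists and 98.3% for shared gene-end regions on chromosomes 1, 8, 15 and 16. Only a termination end was near 46 regions. The other 523 regions had no listed start nearby and a gene with no listed strand, so the kind of end was not assigned. These include all 114 regions of chromosome 18, where no gene had a listed strand, so the values per gene, per promoter and per gene list below cover 14 autosomes. In 81.6% of all 3623, the region covered the gene end itself. Seen from the genes, 3497 of 13754 protein-coding genes with a listed strand (25.4%) had a shared region at their start. The share on these 14 chromosomes ran from 18.4% on chromosome 6 and 20.3% on chromosome 7 to 32.9% on chromosome 19.

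Peak summits, the point of highest signal that the peak caller gave each peak, were less frequent around the start itself than on either side of it. Read shifting was not given in the sources used here, and its part in this pattern was not tested. In the start regions, 8.69% and 7.57% of peak summits of the knockout libraries lay within 50 bases of the start, against 7.38% and 7.80% in the GFP libraries. From 51 to 250 bases downstream lay 35.8% and 39.2% of knockout summits, against 36.9% and 38.8% of GFP summits. The same span upstream held 26.2% and 24.1% in knockout libraries, against 23.7% and 23.6% in GFP libraries. Both spans are wider than that around the start. In bins of 50 bases, the last before the start held 3.45% and 3.39% of knockout summits, against 2.80% and 3.10% of GFP summits. The bin centred 225 bases upstream held 9.10% and 7.95%, against 7.65% and 7.85%. That centred 125 bases downstream held 11.1% and 11.9%, against 11.7% and 13.0%. In knockout replicate 1 the bin centred 75 bases upstream was lower than the last before the start, at 3.26%. All 4 libraries thus had a larger downstream and a smaller upstream group of summits. Leaving out starts shared with a second gene left this order in each library, at 35.4% and 39.6% downstream beside 25.3% and 22.7% upstream in knockout libraries, and 37.6% and 39.0% downstream beside 22.4% and 22.2% upstream in GFP libraries. Where a library had 2 or more peaks in a start region, they lay on both sides of the start in 72.1% and 69.4% of cases in knockout libraries, against 71.1% and 67.1% in GFP libraries. The outer summits of those were a median of 361 and 362 bases apart in knockout libraries and 386 bases apart in both GFP libraries.

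**Figure D1:**
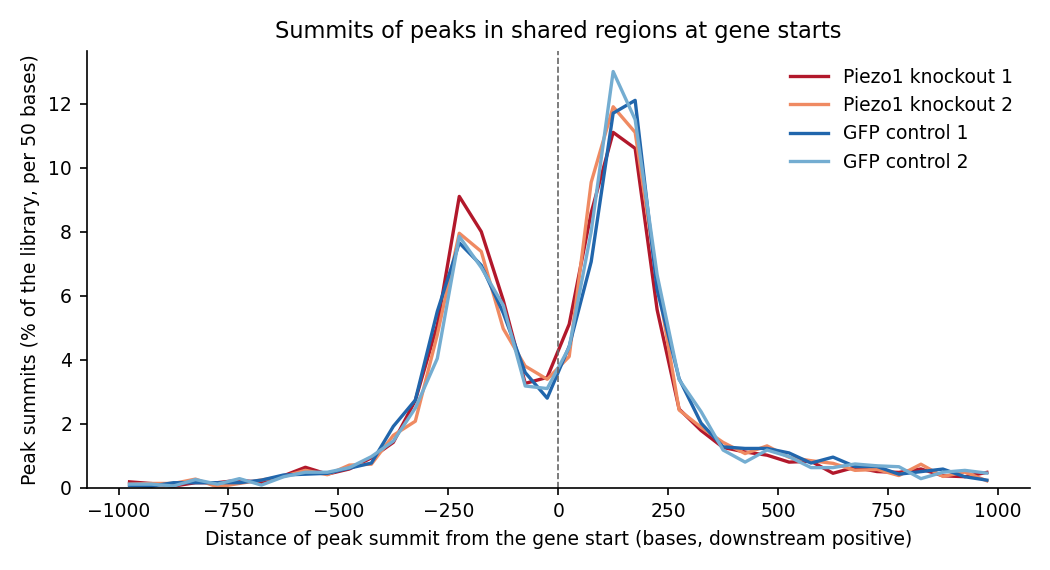
Position of every peak summit in shared regions at gene starts, as a percentage of the summits of each library in bins of 50 bases. Negative distances are upstream of the start. All 4 lines fall at or just before the start and are highest downstream of it. Within 50 bases of the start lay 7.38% to 8.69% of summits.

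The highest summits of the 4 libraries lay near each other in these regions. Their spread within a region had a median of 143 bases (quartiles 67 and 338), against 204 bases in shared regions far from gene ends. All 4 fell within 100 bases in 39.5% of gene-end regions (interval 37.9 to 41.1) and in 29.5% of far ones (27.7 to 31.3). The median summit of the start regions lay 76 bases downstream of the start (quartiles −137 and 174). It was within 250 bases of the start in 75.9% of them, and in 60.2% of gene-start regions of 1 to 3 lists.

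The promoters under these regions were CpG-rich. Sequence was examined in the 2801 genes with a shared region whose listed RefSeq window, from 250 bases before to 50 after the start, began within 100 bases of the gene's own end. Their ratio of observed to expected CpG had a median of 0.817 (quartiles 0.683 and 0.940), against 0.784 for genes with a region in 1 to 3 lists, 0.239 for genes with none, and 0.556 over all 10630 windows. A ratio of at least 0.6 was reached by 85.2% of the windows with a shared region, and by 47.0% of all windows. Median GC content was 61.3% with a shared region, 61.0% with a region in 1 to 3 lists and 49.3% with none. The CpG and GC values of genes in all 4 lists and in 1 to 3 lists were thus closer to each other than to genes with no region.

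Several motifs of promoter-binding factors were more frequent in windows with a region than in windows with none. The GC box GGGCGG was in 69.8% of windows with a shared region, against 67.0% with 1 to 3 lists, 26.9% with none and 45.0% of all windows. The ETS motif CCGGAAG was in 24.5%, against 20.2%, 4.36% and 12.3% in the same order. The YY1 motif AAGATGGC was in 5.93%, against 5.05%, 1.33% and 3.17%. The NRF1 motif CGCATGCG was in 4.64%, against 5.94%, 0.979% and 2.78%, so it was less frequent with 4 lists than with 1 to 3. The cyclic AMP response element TGACGTCA was in 4.14%, against 3.66%, 1.36% and 2.48%, and the E-box CACGTG in 11.1%, against 12.0%, 5.29% and 7.96%, so the E-box too was slightly less frequent with 4 lists than with 1 to 3. The TATA motif TATAAA went the other way, in 5.93% of windows with a shared region, against 7.38%, 22.1% and 15.3%. Like the other motifs, it was counted anywhere in the window on either strand, so these are not shares of promoters with a placed TATA box. The AP-1 motif TGANTCA was in 4.28%, against 4.72%, 10.2% and 7.70%, and the RUNX motif TGTGGTT in 3.57%, against 3.50%, 6.40% and 5.16%. The TEAD motif GGAATG was in 10.5%, against 12.4%, 14.5% and 13.1%, and the CTCF motif AGGGGGCGC in 1.54%, against 3.00%, 1.16% and 1.57%. None of the motifs contains another. A match gives letters in a window and does not show that a factor was bound. Base composition differs between these classes, and its part in the motif shares was not tested.

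In percentage points, CCAAT was the motif whose share differed most between shared regions and regions in fewer lists, while as a ratio the rarer CTCF motif differed more. CCAAT was in 48.4% of windows with a shared region, against 33.2% with 1 to 3 lists, 39.4% with none and 40.7% of all windows. Genes were ranked by the lowest fold enrichment of their region over the 4 libraries and cut into bands of 25% each. The top band held CCAAT in 60.4% of windows, the next bands in 49.1% and 46.2%, and the bottom band in 39.0%. With regions ordered by their lowest rank within a list instead, a choice made after seeing the data, the bands held it in 60.8%, 48.9%, 46.6% and 38.2%. CpG-rich windows, with a ratio of at least 0.6, also followed the order by fold enrichment, at 89.4%, 87.9%, 83.7% and 80.7% from the top band to the bottom. The TATA motif ran the other way, at 4.78%, 5.20%, 6.28% and 7.57%. No such order appeared for the GC box, at 69.0%, 71.0%, 68.9% and 70.9%, or for the ETS motif, at 22.7%, 27.3%, 25.2% and 22.3%. The ZFP143 motif ACTACAATT was in 15 of 670 windows of the top band (2.24%). It was in 2, 4 and 6 windows of the others in the same order (0.289%, 0.558% and 0.857%). Its share was 0.964% with a shared region, against 1.17% with 1 to 3 lists, 0.282% with none and 0.611% of all windows. Windows with CCAAT had a median lowest fold enrichment of 5.61 (quartiles 4.86 and 6.57), and those without it 5.27 (4.57 and 6.09), so the ranges of single regions overlapped widely.

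Matches also had places of their own relative to the start. Of 176 YY1 matches in windows with a shared region, 55.1% lay in the 50 bases after the start, against 53.5% of 172 in the other windows. Of 2514 CCAAT matches, 30.3% lay 51 to 100 bases before the start and 23.7% in the last 50 bases before it, against 27.6% and 17.7% of 4084 in the other windows. The ETS, NRF1, GC box and cyclic AMP response element matches were most frequent in the last 50 bases before the start, with 34.5%, 33.1%, 30.7% and 37.8% of matches under shared regions. In the other windows these shares were higher, at 37.6%, 41.1%, 33.9% and 44.4% in the same order.

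Peaks at shared gene-end regions were among the highest of each library. The fold enrichment of a peak, the authors' own ratio of signal at its summit to the local background of its library, is used to describe and order peaks within a list, and values of several lists are given side by side. The highest peak per region had medians of 6.34 and 6.05 in the knockout libraries, against 5.83 and 7.17 in the GFP libraries. In shared regions far from gene ends the medians were 5.75 and 5.36 in knockout libraries, against 5.63 and 6.73 in GFP libraries. In gene-end regions of 1 to 3 lists they were 4.97 and 4.62 in knockout libraries, against 4.59 and 4.91 in GFP libraries. In every library the median was thus higher at gene ends than in shared regions far from them, which passed the same rule of 4 lists. Regions in 1 to 3 lists were set apart by a peak that was not called in some list, so their lower values, and the large share of the highest peaks that lay in shared regions, follow in part from the rule. Of the 1000 highest peaks of a library, 72.7% and 75.8% lay in shared gene-end regions in knockout libraries, against 61.5% and 62.4% in GFP libraries. These regions held 35.3% and 40.4% of all peaks of the knockout lists on these chromosomes, against 36.0% and 20.2% of the GFP lists. The lists differ in length and their read depth is unknown, so these shares are given side by side with no comparison between the groups.

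**Figure D2:**
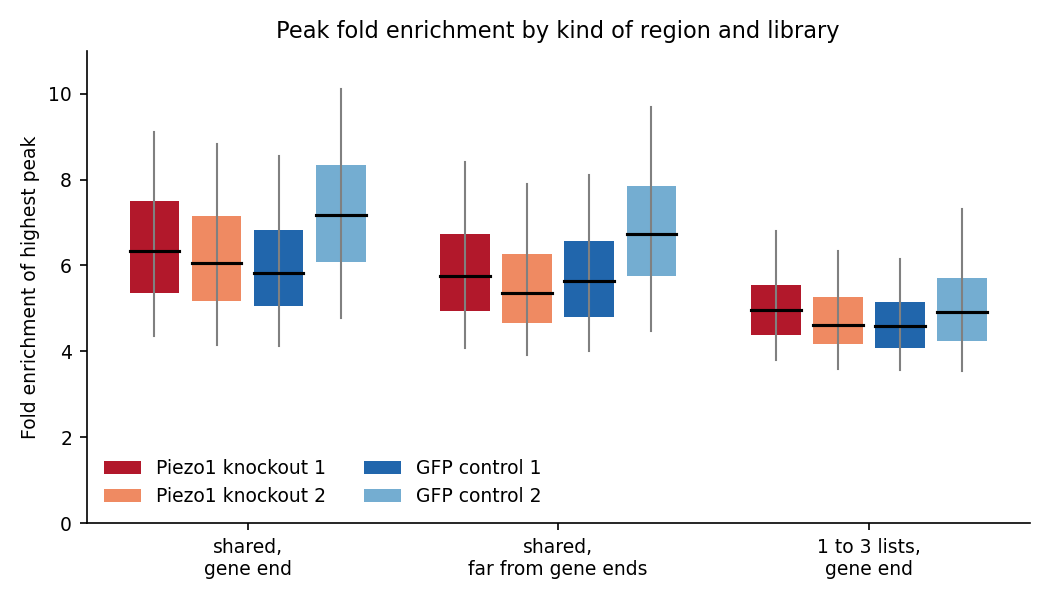
Fold enrichment of the highest peak of each library in 3 kinds of region, as the authors deposited it. Boxes span the quartiles, black lines are medians and grey lines run from the 5th to the 95th percentile over regions. The medians of shared gene-end regions, at 6.34, 6.05, 5.83 and 7.17 for Piezo1 knockout 1 and 2 and GFP control 1 and 2, are the highest of the 3 kinds in each library. Regions in 1 to 3 lists lack a called peak in some library by definition.

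The order of the regions by height was similar in all 4 libraries. Spearman's rho over the 3623 regions was 0.67 between the 2 knockout libraries, 0.66 between the 2 GFP libraries and 0.59 to 0.65 between a knockout and a GFP library. Over the 2500 shared far regions it was 0.61 and 0.66 within groups and 0.47 to 0.52 across them. The points of each rho are regions of the same 2 libraries, which share depth and base composition, and the values are descriptions. In 58.5% of gene-end regions the highest value came from GFP replicate 2, the longest list, and in 44.2% the lowest came from GFP replicate 1. The lists thus differ in scale across all regions, and the order of the libraries or groups at a single region is not read.

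The regions with the highest lowest value over the 4 libraries served genes of varied roles. Ordering by the lowest rank within a list kept 8 of these 10. The region of Ensa, whose product α-endosulfine inhibits protein phosphatase 2A in mitosis, spans chr3:95624488-95625313. It had fold enrichments of 11.5 in both knockout libraries and 12.8 and 13.0 in the GFP libraries. That of Amz2, a metalloprotease gene, at chr11:109425467-109426466, had 10.6 and 10.8 in knockout cells and 10.9 and 11.9 in GFP cells. That of Prmt5, an arginine methyltransferase that modifies histones and splicing proteins, at chr14:54517094-54517945, had 11.5 and 10.1 in knockout cells and 11.5 and 10.8 in GFP cells. All 12 values of these 3 regions were above the upper quartile of their own library, which follows from how the regions were chosen.

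Tfb1m, which methylates mitochondrial ribosomal RNA, had a region with 10.0 and 10.5 in knockout cells and 10.9 and 13.9 in GFP cells. G3bp1, which nucleates stress granules, had 10.6 and 9.93 in knockout cells and 10.0 and 11.8 in GFP cells. Rbm25, a splicing regulator, had 11.9 and 13.7 in knockout cells and 9.80 and 10.7 in GFP cells. Osbp, a sterol carrier between membranes, had 9.58 and 10.4 in knockout cells and 9.55 and 10.4 in GFP cells. Acat2, a cytosolic thiolase at the head of sterol synthesis, had 10.6 and 9.62 in knockout cells and 10.7 and 12.9 in GFP cells. A pair of these regions lay between 2 genes. The one shared by Erp44, a chaperone of the early secretory pathway, and Invs, a ciliary protein gene, had 9.88 and 10.7 in knockout cells and 10.7 and 11.1 in GFP cells. The one shared by Psph, which makes serine, and Cct6a, a subunit of the TRiC chaperonin, had 10.3 and 10.5 in knockout cells and 9.71 and 10.1 in GFP cells.

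Shared regions between 2 genes transcribed away from each other were frequent. Of the 3054 start regions, 328 (10.7%, interval 9.66 to 11.9) lay between 2 such genes, against 6.71% of start regions in 3 lists, 4.49% in 2 lists and 5.66% in 1 list. The 2 starts were a median of 120 bases apart (quartiles 57 and 260). The median fold enrichments of these regions were 6.92 and 6.68 in knockout libraries and 6.11 and 7.50 in GFP libraries, above the 6.35 and 6.03 in knockout libraries and 5.82 and 7.14 in GFP libraries of the other start regions. Their promoters had a median CpG ratio of 0.855, against 0.806 for the other start regions, and held the ETS motif in 29.8%, against 23.2%. RNA of both genes was detected in 290 of the 324 pairs matched to the count table (89.5%), of 1 gene in 33 and of neither in 1.

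The 46 regions near a termination end only were lower. Their medians were 5.29 and 4.98 in knockout libraries and 5.18 and 6.05 in GFP libraries, against 6.40 and 6.10 in knockout libraries and 5.86 and 7.17 in GFP libraries for start regions. By the lowest value over the 4 libraries, the first was at the end of Fhl3, a LIM-domain gene, at chr4:124708558-124709458, with 8.72 and 7.64 in knockout cells and 8.21 and 10.1 in GFP cells. At Bcat2, a mitochondrial aminotransferase of branched-chain amino acids, the values were 8.24 and 6.53 in knockout cells and 7.07 and 7.80 in GFP cells. At St3gal4, a sialyltransferase, they were 6.44 and 6.88 in knockout cells and 7.91 and 7.56 in GFP cells. At Ppp2r1b, a scaffold subunit of protein phosphatase 2A, they were 5.64 and 5.99 in knockout cells and 8.26 and 10.3 in GFP cells. The region at the end of the predicted gene Gm46933, with 9.20 and 6.82 in knockout cells and 6.35 and 10.1 in GFP cells, also covers a listed transcript start of G3bp2. In all, 5 of the 46 had another listed transcript start within 1000 bp.

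Genes of basic cell functions had a shared region at their start more often than the 25.4% of all genes, and than the 42.0% of genes with detected RNA. All genes of the 7 lists in this paragraph had detected RNA. Among genes of 15 lists on these chromosomes, the highest share was in heat shock proteins and chaperones, which fold proteins, with 12 of 14. RNA processing factors had 22 of 29. Nuclear oxidative phosphorylation genes had 15 of 24, DNA replication and cell cycle genes 13 of 21, cytosolic ribosomal proteins with elongation factors 24 of 39, and proteasome subunits 14 of 23. Promoter-binding factors had 7 of 11, among them Nfya and Nfyb, encoding subunits of the CCAAT-binding factor NF-Y, while the third subunit gene Nfyc had no region in any list. The lists were drawn up with earlier results of these data known and describe these genes only.

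**Figure D3:**
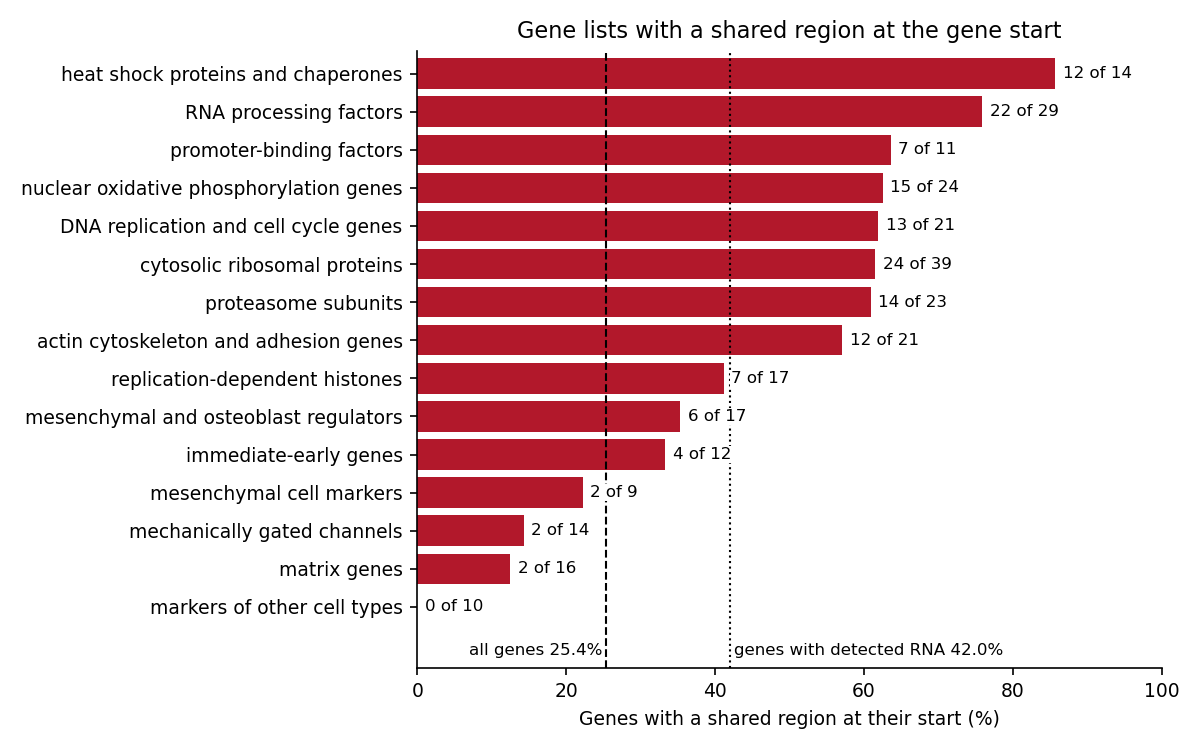
Percentage of the genes of each list that had a shared region at their start, among list genes with a listed strand. The dashed line is the 25.4% of all 13754 protein-coding genes and the dotted line the 42.0% of those with detected RNA. Heat shock proteins and chaperones are highest with 12 of 14, and markers of other cell types are at 0 of 10.

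Genes of the mesenchymal lineage had shared regions less often than the lists above. Among mesenchymal and osteoblast regulators, 6 of 17 (35.3%) had a shared region (Id2, Id3, Smad3, Snai1, Sox4 and Wwtr1), which lies between the 25.4% of all genes and the 42.0% of genes with detected RNA, 9 had a region in 1 to 3 lists and 2 had none. Of matrix genes, only P4ha1, a collagen prolyl hydroxylase, and Tnc, tenascin C, had a shared region among 16 (12.5%), while 10 had a region in 1 to 3 lists and 4 had none. All 17 regulators and all 16 matrix genes had detected RNA. Of the mesenchymal markers, Vim and Cd44 had a shared region among 9 (22.2%), 4 had a region in 1 to 3 lists and 3 had none, and all 9 had detected RNA. None of 10 markers of other cell types had a region in any list at the start, and 3 of the 10 had detected RNA. Over the whole genome, 17 of 18 mesenchymal markers were detected, with a summed level of 65661 to 78294 CPM under strain and 91641 to 98057 CPM in static control. The 24 markers of other cell types summed to 6.27 to 8.31 CPM under strain and 13.1 to 14.1 CPM in static control. Of these, 5 were detected (Afp, Syp, Cdh1, Nanog and Sox2), while 13, among them Ptprc, Cdh5, Epcam and Myod1, had no count in any library.

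Genes that respond to or carry mechanical load were divided. The actin cytoskeleton and adhesion list had a shared region at 12 of 21 genes. At Myh10, a non-muscle myosin heavy chain, the values were 8.66 and 8.82 in knockout cells and 8.81 and 10.5 in GFP cells. At Zyx, a focal adhesion protein gene, they were 8.24 and 8.97 in knockout cells and 8.39 and 8.64 in GFP cells. At Vcl, encoding vinculin, they were 6.87 and 8.90 in knockout cells and 7.03 and 6.98 in GFP cells. Immediate-early genes had 4 of 12 (Fos, Fosl2, Ier3 and Jun), with 5 of 12 in no list. Of 14 genes in the list named mechanically gated channels, Trpm7 and Pkd1 had a shared region and 9 had no region. Being in the list does not show that a gene's product is itself mechanically gated. At Trpm7, a channel fused to a kinase, the values were 7.14 and 11.5 in knockout cells and 10.4 and 9.14 in GFP cells. At Pkd1, the polycystin 1 gene, the region lay 905 bp from the start, with 7.11 and 6.21 in knockout cells and 6.79 and 6.58 in GFP cells.

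A shared region at the start went with detected RNA in cells of the same line. RNA-seq libraries held 36150738 to 41024689 counts, and a gene was taken as detected when it passed edgeR's filter on low counts over the 6 libraries. Of the 3474 genes with a shared region that matched the count table, 3393 (97.7%) were detected, against 96.2% with a region in 3 lists, 95.9% in 2 lists, 93.5% in 1 list and 32.7% in none. The step between 1 list and none was thus far larger than any step among genes with a region. Of all detected genes, 42.0% had a shared region, against 1.49% of genes not detected. Of the 81 genes with a shared region and no detected RNA, 36 (44.4%, interval 33.4 to 55.9) shared it with a gene on the other side, against 17.8% of the detected genes with a shared region. Exon lengths were not used here, so levels are not compared between genes.

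Among bands of 25% of these genes by lowest fold enrichment, detection was 98.4%, 97.8%, 97.1% and 97.4% from the top band to the bottom. Replication-dependent histone genes stood outside this relation in part. Of 17 such genes on these chromosomes 7 had a shared region, of which 5 were detected. Their mRNAs lack a poly(A) tail, and whether this played a part in their detection was not tested. H2bc12, with fold enrichments of 8.06 and 5.86 in knockout cells and 6.36 and 6.59 in GFP cells, had 0.192, 0.0802 and 0.145 CPM under strain, against 0.209, 0.140 and 0.569 CPM in static control. Its RNA was near the floor in all 6 libraries and was not tested.

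The RNA-seq comparison asked which genes differed between strained and static cells, and its libraries were not used to choose the regions. Of the 3393 tested, 174 (5.13%) were higher and 149 (4.39%) lower under strain, where over all 15335 tested genes 5.94% were higher and 7.39% lower (edgeR, adjusted p under 0.05). The share of higher calls was near the background and that of lower calls below it. Genes with no region at their start had 6.80% higher and 12.3% lower of 2545, and those with a region in 1 to 3 lists 7.19% and 6.54% of 2142. The median log2 fold change of genes with a shared region was 0.04 (quartiles −0.15 and 0.21), against 0.00 over all tested genes (−0.26 and 0.23). The median standard error was 0.13 for genes with a shared region and 0.17 for genes with no region.

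Large changes were few among these genes. At least 2-fold higher were 11 of 3393 (0.324%) and at least 2-fold lower 15 (0.442%), where over all tested genes these were 1.11% and 2.50%. Genes with no region had 1.96% and 6.09%. In the top 25% by lowest fold enrichment, 4.44% were higher and 2.81% lower, and in the bottom 25% 5.67% and 7.33%. The counts of all calls rested on single libraries. They were 56 higher and 72 lower without strain replicate 2, 53 and 68 without strain replicate 3, and 49 and 71 without static control replicate 1. Calls over all tested genes also fell, from 2045 to 1081, 981 and 979 in the same order, so a drop was not particular to these genes. It was steeper among them. The share of their calls that were higher went from 53.9% to 43.8%, 43.8% and 40.8%. Over all tested genes it went from 44.5% to 38.9%, 41.2% and 37.7%. The summed levels of mesenchymal markers and of markers of other cell types, given above, were both lower in every strain library than in every static control library, and their part in these counts was not tested. With library size alone as scaling, 70.0% of the calls among these genes were higher, against 53.9% after TMM scaling. Over all tested genes these shares were 55.6% and 44.5%. Nothing in the labels ties replicates to separate cultures. Every p-value here therefore reflects library-to-library spread that may be technical. Replicate pairs had a chi-square of 9.78 to 64.7 per degree of freedom, so none agreed within sampling noise.

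**Figure D4:**
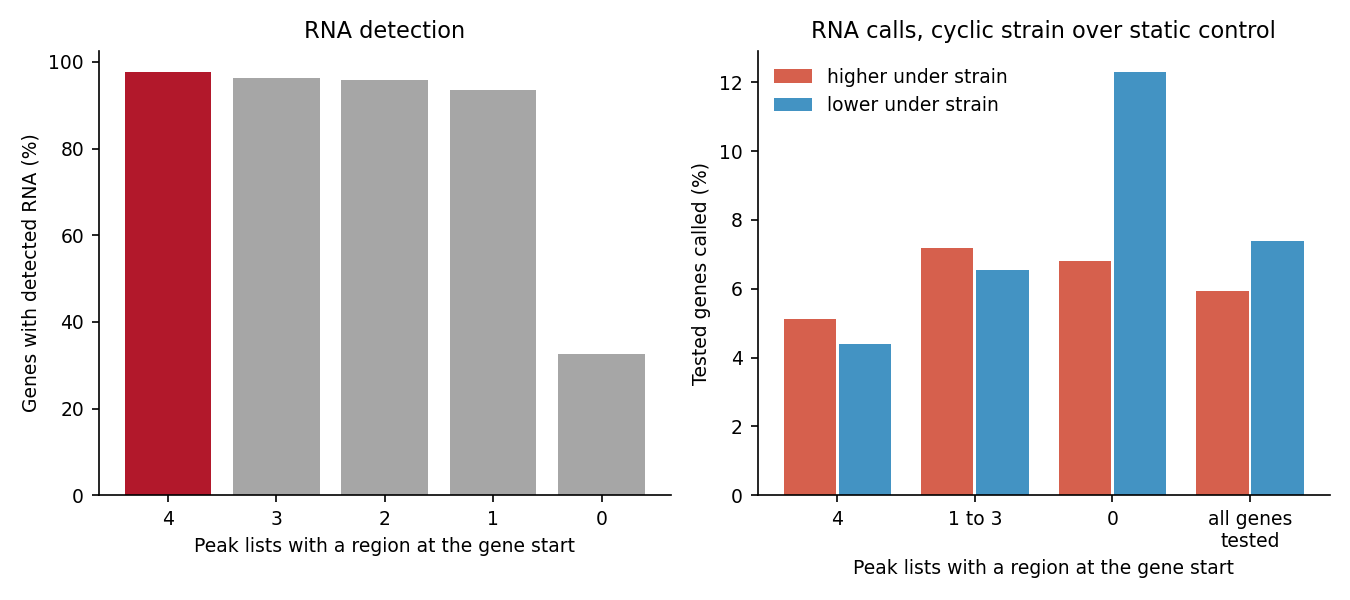
Left, percentage of genes with detected RNA by the number of peak lists with a region at the gene start, from 97.7% with all 4 lists to 32.7% with none. Right, percentage of tested genes called higher or lower under cyclic strain over static control, with 5.13% and 4.39% at 4 lists and 6.80% and 12.3% at none.

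The largest increases among genes with a shared region included enzymes against oxidants. They were taken from called genes whose log2 CPM averaged 2 or more and whose groups did not overlap. Gclm, the modifier subunit of the enzyme that starts glutathione synthesis, had 72.9, 38.8 and 42.4 CPM under strain, against 21.3, 18.5 and 18.2 CPM in static control. It was 2.66-fold higher (log2 fold change 1.41, SE 0.21, adjusted p = 0.00222). Strain replicate 1 was the highest and all strain libraries were above all static ones. Srxn1, a sulfiredoxin that repairs peroxiredoxins, had 199, 119 and 123 CPM under strain, against 58.0, 56.0 and 69.4 CPM in static control. It was 2.41-fold higher (log2 fold change 1.27, SE 0.19, adjusted p = 0.00202), and strain replicate 1 was again the highest. At the Srxn1 start, peak fold enrichments were 6.68 and 6.27 in knockout cells and 7.04 and 9.44 in GFP cells. The region covers the printed stretch with the 2 AP-1 motif matches.

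Cyp1b1, a cytochrome P450 that acts on estrogens, had 413, 424 and 369 CPM under strain, against 173, 179 and 131 CPM in static control. The groups were far apart, at 2.50-fold (log2 fold change 1.32, SE 0.13, adjusted p = 1.85e-04). Insig1, which holds the activator of sterol genes in the endoplasmic reticulum, had 50.0, 44.4 and 36.3 CPM under strain, against 20.2, 19.9 and 19.3 CPM in static control (log2 fold change 1.14, SE 0.13, adjusted p = 4.44e-04). Fads2, a fatty acid desaturase, had 84.2, 137 and 140.4 CPM under strain, against 50.1, 56.6 and 51.5 CPM in static control. Its log2 fold change was 1.19 (SE 0.17, adjusted p = 0.00187), with strain replicate 1 the lowest of its group. Il6, a cytokine gene, had 9.37, 9.51 and 9.65 CPM under strain, against 5.51, 4.07 and 5.63 CPM in static control (log2 fold change 0.91, SE 0.16, adjusted p = 0.00513).

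Hsph1, a cochaperone of the HSP70 system, had the largest log2 fold change at this level of expression, 1.47 (SE 0.38, adjusted p = 0.0297), but 1 library gave most of it. It had 216, 70.0 and 67.1 CPM under strain, against 43.8, 44.2 and 40.0 CPM in static control. All strain libraries were above all static ones, with strain replicate 1 far above the other 2. The call was lost without static control replicate 3 (adjusted p = 0.0784) and without static control replicate 1. Erap1, which trims peptides for antigen presentation, Tmtc4, a mannosyltransferase of the endoplasmic reticulum, and Sqor, which oxidises sulfide in mitochondria, rose by log2 fold changes of 1.03, 0.97 and 0.90. Acat2, among the 10 highest regions, averaged 25.5 ± 2.38 CPM under strain and 16.3 ± 1.49 CPM in static control (SD, n = 3 each), with an adjusted p of 0.00743 for a log2 fold change of 0.64 (SE 0.12). It was the only one of the genes named for those 10 regions that was called.

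The largest decreases at the same level of expression included genes induced by hypoxia. Entpd2, an ectonucleotidase, had 2.23, 2.83 and 2.62 CPM under strain, against 8.99, 7.89 and 11.4 CPM in static control (log2 fold change −1.88, SE 0.19, adjusted p = 2.15e-04). Hilpda, a lipid droplet protein gene induced by hypoxia, had 16.4, 12.2 and 12.5 CPM under strain, against 47.6, 33.3 and 61.6 CPM in static control (log2 fold change −1.79, SE 0.21, adjusted p = 5.22e-04). Static libraries of Hilpda were spread over a wide range but stayed above all strain libraries. Ero1a, an oxidase that forms disulfide bonds in the endoplasmic reticulum, had 138, 118 and 117 CPM under strain, against 389, 320.3 and 311 CPM in static control (log2 fold change −1.45, SE 0.12, adjusted p = 6.89e-05). Higd1a, a mitochondrial protein gene induced by hypoxia, had 54.1, 48.1 and 54.3 CPM under strain, against 114, 96.6 and 152 CPM in static control (log2 fold change −1.21, SE 0.15, adjusted p = 8.51e-04). The Higd1a region was also among the higher ones, with 9.09 and 10.0 in knockout cells and 8.56 and 13.1 in GFP cells.

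Ciart and Dbp, both of the circadian clock, were lower. Ciart, a clock repressor, had 7.97, 6.20 and 8.12 CPM under strain, against 17.8, 15.6 and 22.2 CPM in static control (log2 fold change −1.32, SE 0.17, adjusted p = 8.57e-04). Dbp, a clock output transcription factor, had 6.00, 4.30 and 4.12 CPM under strain, against 9.96, 8.57 and 11.6 CPM in static control (log2 fold change −1.06, SE 0.19, adjusted p = 0.00506). The groups did not overlap at either gene. The Ciart region, over the stretch with 3 E-box and 3 CCAAT matches, had fold enrichments of 7.89 and 7.41 in knockout cells and 9.13 and 7.97 in GFP cells. Bmf, a cell death activator, Kctd11, an adaptor of a ubiquitin ligase, Homer1, a scaffold protein gene, and Trappc6a, of a vesicle tethering complex, fell with log2 fold changes of −1.35, −1.29, −1.27 and −1.08. Of these 20 genes, only Hsph1 lost its call when 1 library was left out. Larger fold changes were called at lower levels, among genes with a shared region named after their values were seen. Itgb8 and Idi1 averaged 3.57 and 3.17 CPM under strain, against 1.11 and 1.03 CPM in static control, with log2 fold changes of 1.68 (adjusted p = 0.0230) and 1.62 (adjusted p = 0.0102). Cbln3, Armh1 and Fgf18 averaged 0.437, 0.148 and 0.224 CPM under strain, against 3.49, 0.792 and 1.00 CPM in static control, with log2 fold changes of −3.00, −2.38 and −2.15 (adjusted p = 1.91e-04, 0.0124 and 0.0473).

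**Figure D5:**
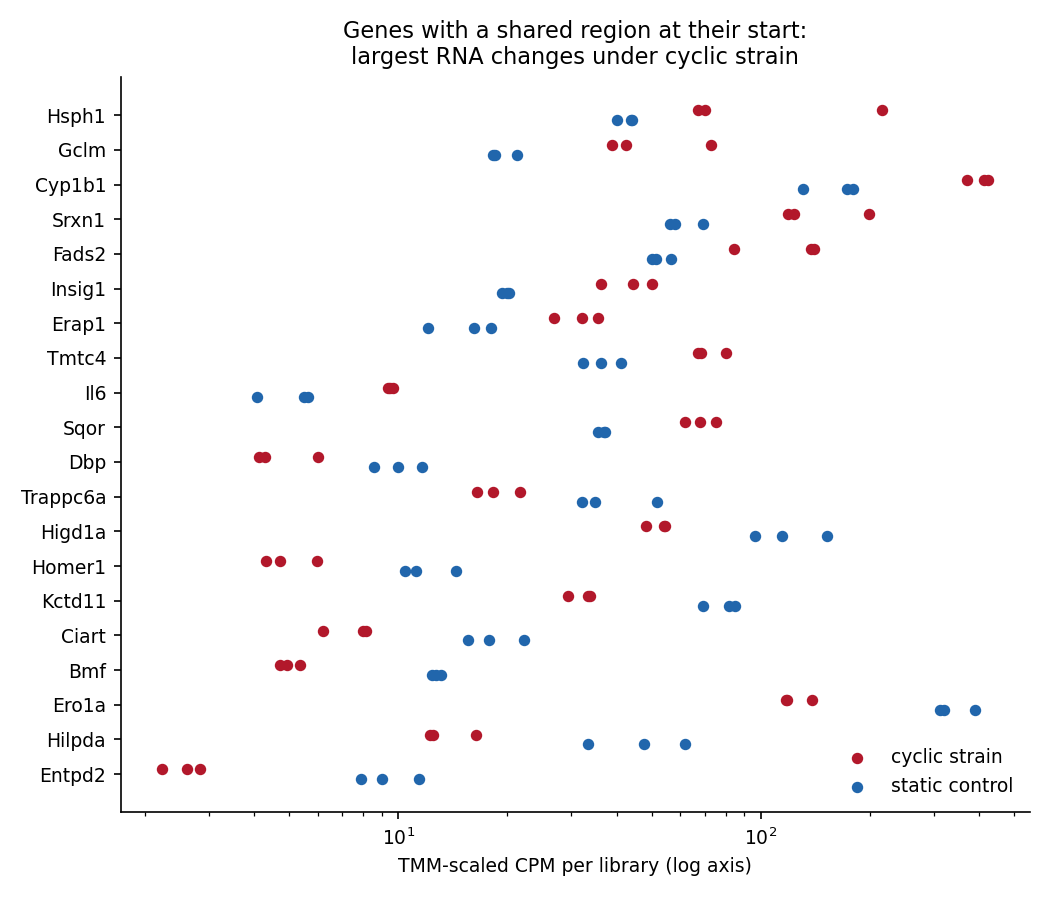
TMM-scaled CPM per library on a log axis for the 10 largest increases and 10 largest decreases among genes with a shared region at their start and an average log2 CPM of at least 2, cyclic strain in red and static control in blue. The 3 libraries of a group do not overlap those of the other at any of the 20 genes. Hsph1 has 1 strain library at 216 CPM and the other 2 at 70.0 and 67.1 CPM.

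Of the 24 cytosolic ribosomal protein and elongation factor genes with a shared region, 8 fell under strain and none rose. Among all tested genes, 7.39% were called lower and 5.94% higher. The median log2 fold change of the 24 was −0.49, against 0.00 over all tested genes. Rpl13a had 871, 646 and 729.6 CPM under strain, against 1170.0, 989.8 and 1591 CPM in static control (log2 fold change −0.74, SE 0.17, adjusted p = 0.0203). Rpl15 had 87.6, 87.0 and 90.5 CPM under strain, against 113, 107 and 122 CPM in static control (log2 fold change −0.37, SE 0.09, adjusted p = 0.0297). The groups did not overlap at either gene, and static control replicate 3 was the highest library in both. The count was 0 without strain replicate 2 and 0 without strain replicate 3, and 3 without static control replicate 1 or 3. It was 17 without static control replicate 2. The median stayed negative in each of these fits, between −0.58 and −0.31. Ribosomal protein genes have many near-identical pseudogenes that can take reads, so these values are uncertain.

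Of 13 DNA replication and cell cycle genes with a shared region, 5 rose (Ccne1, Cdc6, Mcm7, Pcna and Rrm1) and none fell, and their median log2 fold change was 0.30. Higher calls were 5.94% and lower calls 7.39% over all tested genes. Cdc6, which loads the replicative helicase, had 15.4, 16.8 and 15.1 CPM under strain, against 9.25, 10.0 and 7.37 CPM in static control (log2 fold change 0.83, SE 0.14, adjusted p = 0.00445). Pcna, the sliding clamp of DNA polymerases, had 145, 147 and 134 CPM under strain, against 102, 103 and 116 CPM in static control (log2 fold change 0.41, SE 0.10, adjusted p = 0.0230). The libraries did not overlap at either gene. Of the 5 calls, only that of Cdc6 held whichever library was left out, and 1 remained without strain replicate 2, strain replicate 3 or static control replicate 1. Of the 5 replication-dependent histone genes with a shared region that were tested, H1f2 fell and none rose, with a median log2 fold change over the 5 of −0.61. H1f2, a linker histone gene, had 43.0, 38.6 and 31.7 CPM under strain, against 61.2, 46.1 and 55.4 CPM in static control (log2 fold change −0.52, SE 0.14, adjusted p = 0.0374). The groups did not overlap, and the call was lost in 4 of the 6 fits with 1 library left out. Histone genes have near-identical copies that can share reads, so these values are uncertain.

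Of 12 actin and adhesion genes with a shared region, Tpm1 and Rhoa fell and none rose, where 7.39% of all tested genes were called lower. Tpm1, a tropomyosin gene, had 613, 577 and 549.9 CPM under strain, against 886, 834 and 989 CPM in static control (log2 fold change −0.64, SE 0.10, adjusted p = 0.00326). Rhoa, the GTPase that promotes stress fibres, had 296, 296 and 279.7 CPM under strain, against 360.4, 349 and 381 CPM in static control (log2 fold change −0.32, SE 0.09, adjusted p = 0.0446). The Tpm1 call held whichever library was left out, and the Rhoa call was lost in each of the 6 fits with 1 library left out. P4ha1 and Tnc, the 2 matrix genes with a shared region, both fell. P4ha1 had 518, 530.3 and 497 CPM under strain, against 699, 685 and 740.3 CPM in static control (log2 fold change −0.46, SE 0.09, adjusted p = 0.0103). Tnc had 274, 441 and 377 CPM under strain, against 567, 693 and 459 CPM in static control (log2 fold change −0.66, SE 0.19, adjusted p = 0.0425). Both calls were lost without strain replicate 3 or static control replicate 1. That of Tnc was also lost without strain replicate 1 or static control replicate 2. At Tnc the lowest static library was close to the highest strain library.

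Vim, encoding the intermediate filament vimentin, had 3094, 3499 and 3817 CPM under strain, against 4648, 4286 and 5488 CPM in static control (log2 fold change −0.47, SE 0.13, adjusted p = 0.0356). All strain libraries were below all static ones, and the call was lost in 5 of the 6 fits with 1 library left out. Id3, an inhibitor of helix-loop-helix factors, and Sox4, a transcription factor gene, were the called members among regulators, with log2 fold changes of −0.62 (adjusted p = 0.0200) and −0.44 (adjusted p = 0.0418). Their calls were lost in 2 and 4 of those fits. Among chaperones, Hsp90b1 and Tcp1 fell with log2 fold changes of −0.38 and −0.35, and each call was lost in 5 of the 6. Prpf8, a core spliceosome protein gene, was the 1 called RNA processing gene of 22, at a log2 fold change of 0.52 (adjusted p = 0.0435), and its call was lost in 4. Over all tested genes, 5.94% were called higher and 7.39% lower.

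None of the 15 oxidative phosphorylation, 14 proteasome, 4 immediate-early, 7 promoter-binding factor and 2 channel-list genes with a shared region was called. As only 5.94% of all tested genes were called higher and 7.39% lower, nothing is read from the lack of calls in lists this short. Psmb5, a catalytic subunit of the proteasome, had 88.9, 78.2 and 91.8 CPM under strain, against 69.2, 72.1 and 94.6 CPM in static control, with overlapping groups. Jun, an AP-1 subunit gene, had 419, 289 and 267 CPM under strain, against 257, 257 and 253 CPM in static control (log2 fold change 0.35, SE 0.15, adjusted p = 0.162), with strain replicate 1 far above the rest. Trpm7 had 78.1, 70.0 and 72.2 CPM under strain, against 67.3, 66.6 and 48.6 CPM in static control (log2 fold change 0.27, SE 0.13, adjusted p = 0.198).

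Of the 580 genes in 290 pairs that share a region between them and were both tested, 44 (7.59%) were called, where 5.13% and 4.39% of all genes with a shared region were called higher and lower. Exactly 1 gene was called in 38 pairs, neither in 249 and both in 3 (1.03%). Whether neighbours changed together was not tested, and nothing is read from this count. In those 3 pairs both genes were lower. They were Psd and Fbxl15, with log2 fold changes of −0.55 (adjusted p = 0.0203) and −0.71 (adjusted p = 0.0338), Cd3eap and Ppp1r13l, with −0.69 (adjusted p = 0.0499) and −0.75 (adjusted p = 0.00276), and Cbln3 and Khnyn, with −3.00 (adjusted p = 1.91e-04) and −0.65 (adjusted p = 0.00326). With 1 library left out, the calls of Psd, Fbxl15 and Cd3eap were lost in at least 1 fit each, and those of Ppp1r13l, Cbln3 and Khnyn were not lost. These pairs are named for being the only ones and were chosen after their values were seen. No pair had 1 gene higher and the other lower, or both higher. Where counting ignored the strand, reads of overlapping neighbours cannot be told apart, and the strand setting is not given in the sources used here.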

How the data were processed

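The authors deposited 1 ATAC-seq peak list per library, with a fold enrichment ratio, a −log10 p and a −log10 q per peak, and 1 table of read counts per gene symbol. The submitters' processing notes name mm10 and the tools Bowtie2 2.4.2, MACS2, STAR, HTSeq, DESeq2 and Trim Galore 0.6.5. The other versions, the MACS2 threshold, read shifting, duplicate removal and the strand setting were not given in the sources used here. Peaks were called per library without pooling, and a labelled step removed blacklisted regions.

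Peaks were merged and assigned to gene ends with Python 3.11.15 and pandas 2.3.3, using RefSeq gene ends on GRCm38.p6. Distances run from the edges of a merged region, and strand came from the RefSeq promoter table, which listed 13754 of 16963 protein-coding genes on the 15 autosomes. Of these, 13505 matched the count table by symbol or synonym. Strain and static control were compared in R 4.3.3 by the two-sided quasi-likelihood test of edgeR 4.0.16 (glmQLFit, glmQLFTest), on TMM-scaled counts that passed filterByExpr, with Benjamini-Hochberg adjustment over 15335 genes. CPM values are TMM-scaled, and SE is the standard error of the log2 fold change. The scripts were tested on simulated data. No test was made on the peak lists.

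Named regions were the 10 highest at starts and the 5 highest at termination ends only by lowest fold enrichment, up to 4 genes per list, those on either side of the distance limit, and the 10 largest RNA changes each way (called, average log2 CPM of at least 2, groups not overlapping, no predicted, clone-named or pseudogene models). Other list genes were named for being called. The regions, the gene lists and the motifs were chosen with earlier results of these data known. Alternatives tried were DESeq2 1.42.0, limma 3.58.1 (voom), other scalings, no filter on low counts, a replicate block, an order of regions by rank within a list, each library left out, other distances, a −log10 q of at least 10 and 50% cover.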

Additional observations from a re-analysis of the deposited data

How the results depend on the processing

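The 3623 shared gene-end regions became 1376 with peaks of −log10 q of at least 10 and 2390 where the peaks of each list had to cover at least 50% of the merged region, an alternative chosen after seeing the data. A 50% overlap of each peak with its merged region was not run, since every peak lies inside its region. Leaving out 1 ATAC-seq list gave 3645 to 4146 regions, and 98.3% to 98.5% of those with an assigned kind of end lay at a start. That share was 99.3% at the stricter q and 98.0% within 2000 bp. At the stricter q, CpG-rich windows came to 88.6%, GC box windows to 71.5% and CCAAT windows to 58.4%, and 66 genes were called higher and 52 lower of 1415. A threshold of 1 CPM in all static libraries gave a detected share of 94.4%, and leaving out 1 RNA-seq or ATAC-seq library 97.5% to 97.9%.

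Calls among genes with a shared region came to 293 higher and 237 lower with DESeq2, 310 and 238 without the low-count filter, and 369 and 270 with a replicate block. Over all genes those fits called 2860, 3002 and 3176 genes, against 2045. Same-numbered strain and static libraries had correlations of 0.0278, 0.208 and 0.0943, against −0.187 to 0.0905 between libraries of different numbers. The main fit did not pair the samples, and these few values do not settle whether the replicate numbers pair them. With 1 RNA-seq library left out, 49 to 228 genes with a shared region were higher and 68 to 195 lower, while those fits called 979 to 2329 of all genes. With 1 ATAC-seq list left out they were 174 to 195 and 147 to 174. The 8 ribosomal calls became 20 with DESeq2, 22 without the filter or with the block, and 5 with library size alone. Library size alone moved the median log2 fold change of all tested genes by 0.05. No named gene changed sign where a call was at stake. The cause of these differences was not tested. ATAC-seq read depth is unknown, so a region missing from a list cannot be told from one too shallow to call.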
